A study of Mus musculus with 6 samples.

Results

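Chemokine ligands and their receptors were followed in RNA from whole mouse hearts. Members were the rows of the deposited table whose symbol names a CC, CXC or CX3C ligand, a receptor of these classes or an atypical chemokine receptor (Ackr). The rule matched 59 of 24525 gene rows, of which 58 are described: 38 ligands, 16 conventional receptors and 4 atypical receptors. The series holds 6 strand-specific total RNA libraries of hearts from mice aged 3 to 6 months, 3 labelled WT (replicates 4, 5 and 6) and 3 labelled DKO (replicates 7, 8 and 9). DKO mice carried null alleles of Mbnl1 (Mbnl1-/-), conditional alleles of Mbnl2 (Mbnl2cond/cond) and the Myh6-Cre+/- transgene. The labels give no genotype for the WT animals beyond WT. Myh6-Cre acts in cardiomyocytes, so by the design, which whole-heart RNA does not check, other heart cells carry the Mbnl1 null alleles and unrecombined Mbnl2. MBNL proteins regulate alternative splicing and are sequestered by expanded repeat RNA in myotonic dystrophy. The comparison asked which chemokine transcripts differ in the heart between these genotypes.

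Chemokines are small secreted proteins that guide migrating leukocytes along gradients by binding G protein-coupled receptors. In the heart, CCL2 and related ligands recruit CCR2-bearing monocytes, CX3CL1 from endothelium engages CX3CR1 on monocytes and macrophages, and CXCL12 acts through CXCR4. Atypical receptors bind chemokines without G protein signalling and act mainly as scavengers.

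Levels are TPM, a share of the transcripts of a library corrected for transcript length, so they may be compared between genes. Errors after ± are SDs over the 3 libraries of a group. A log2 difference subtracts the WT mean from the DKO mean of log2(TPM + 1), which understates changes of genes at low TPM. A gene was tested with limma where at least 3 libraries reached 1 TPM, and called at a Benjamini-Hochberg (BH) adjusted p under 0.05 over the 14541 genes tested. Read depth is unknown, because TPM does not carry it. Totals lay between 999963 and 999991 TPM, and from 14084 to 14623 genes reached 1 TPM. Cardiomyocyte markers summed to 77310 to 79420 TPM in WT and 75540 to 76280 TPM in DKO. All 10 of them were tested, and 1 was higher (Ttn) and 2 lower (Tnni3 and Ryr2). Mbnl1 was lower in DKO (155 ± 8.98 to 106 ± 3.16 TPM) and Mbnl2 higher (169 ± 20.1 to 237 ± 9.46 TPM), so at the gene level Mbnl2 went against its label and neither value checks the deletion. The library titled DKO 7 carries a genotype tag that reads WT, and it is grouped here by its title. Mbnl1 was 102, 108 and 107.5 TPM in DKO 7, 8 and 9, against 145 to 161 TPM in WT. Mbnl2 was 227, 240 and 245 TPM in these DKO libraries, against 149 to 189 TPM in WT. Xist was 152 TPM in DKO 7 and 174 TPM in DKO 8, while the 3 WT libraries and DKO 9 had Y-linked transcripts at 163 to 179 TPM.

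With all libraries and replicate 7 as DKO, Ccr1, Ccr2 and Cx3cr1, receptors of monocytes and macrophages, were called higher in DKO hearts. The ligand Ccl24 was called lower. Calls other than Cx3cr1 depended on single libraries, and all of them on the group of replicate 7, as given below. The 3 receptors were between 2.64 and 3.89 times their WT means, and Ccl24, an eotaxin made by macrophages, went from 6.47 ± 2.55 to 1.69 ± 0.503 TPM. Of the 58 members, 34 were tested, and 3 of them were called higher and 1 lower. Over all genes tested 6.51% were called higher, 4.22% lower and 10.7% in either direction. The counts of 3 and 1 among 34 lie near these shares and are not read as a result about the members as a set. By role, 3 of 8 tested conventional receptors were called higher, 1 of 23 tested ligands lower, and 0 of 3 tested atypical receptors in either direction; the difference between roles was not tested. DKO values lay above all WT values without overlap in 12 of the 34 and below in 3, beside 19.1% and 13.8% of all genes tested. At an unadjusted p under 0.05 the numbers were 12 higher and 3 lower, beside 2328 and 1593 of the 14541 genes. Both counts of 12 include Cxcr6 and Cxcl10, which reached 1 TPM in DKO libraries only and so passed the filter because they were high there, and neither count is read as support. The median log2 difference was 0.28 for the tested members and 0.03 for all genes tested. Without a filter it was 0.20 for the 51 members above 0 in at least 1 library and 0.05 for all such genes.

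**Figure D1:**
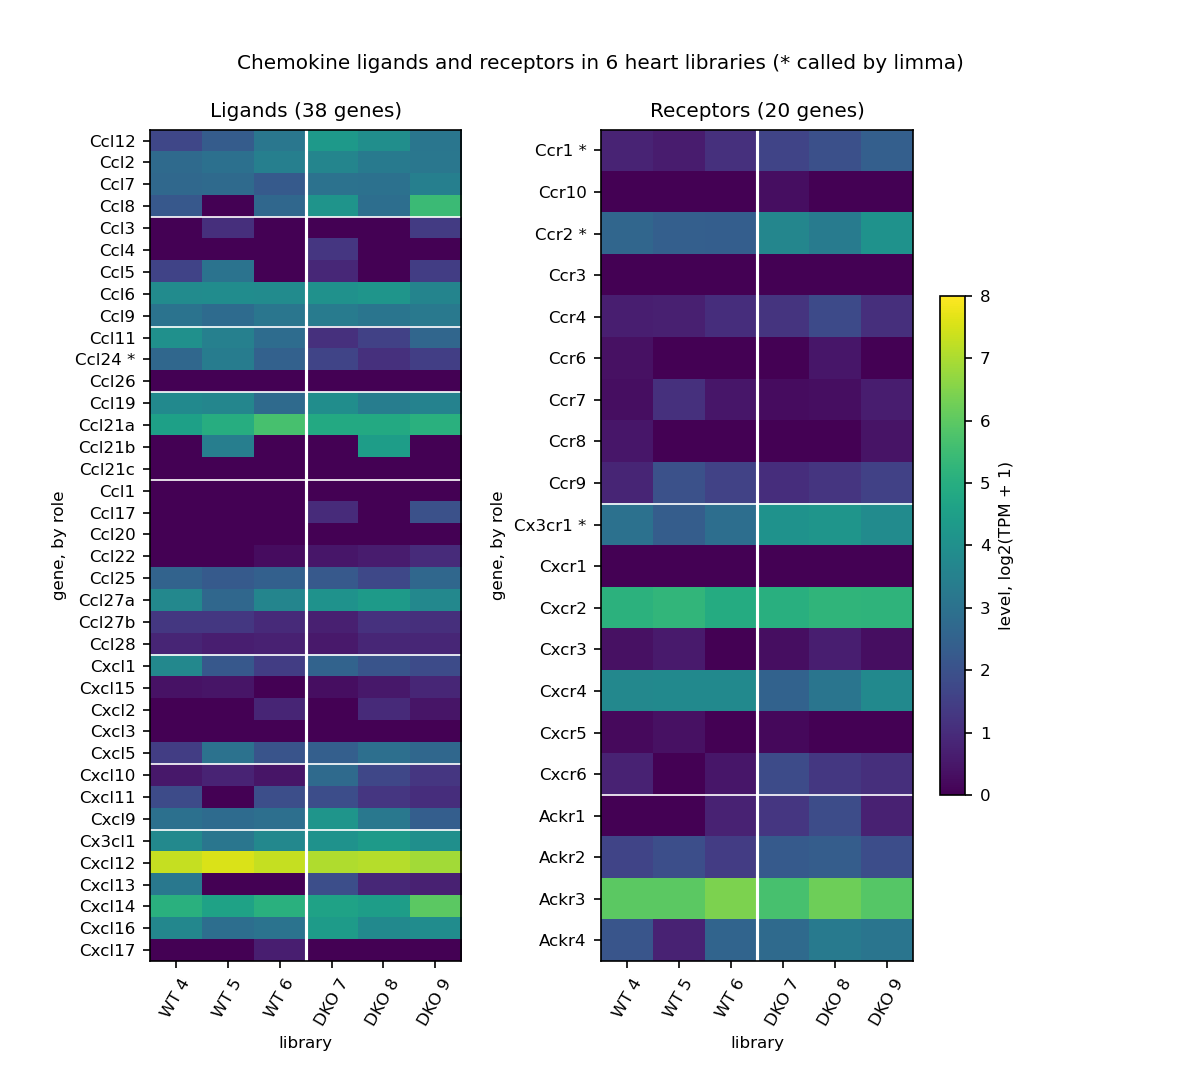
Heat map of the level of every member, as log2(TPM + 1), in each library (columns), with ligands on the left and receptors on the right, grouped by role between white lines; an asterisk marks the 4 called members. Cxcl12 (118 to 185 TPM) is the highest row in all 6 libraries, and 7 rows are at 0 throughout.

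Of the 4 calls 3 were receptors. Cx3cr1, the receptor of fractalkine on monocytes and tissue macrophages, had 6.86, 4.14 and 6.42 TPM in WT 4, 5 and 6 and 15.9, 17.2 and 13.7 TPM in DKO 7, 8 and 9. The groups did not overlap, with a log2 difference of 1.31 (SE 0.19, adjusted p = 0.0107 by limma) and a ratio of means of 2.69.

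Ccr2, which directs monocytes out of the bone marrow and into inflamed tissue, had 5.24, 4.38 and 4.21 TPM in WT and 11.7, 9.07 and 15.8 TPM in DKO. The WT libraries were close together and the DKO libraries spread more widely, with DKO 9 highest. The log2 difference was 1.21 (SE 0.21, adjusted p = 0.017 by limma) and the ratio 2.64. Ccr1, a receptor for several inflammatory CC ligands, was the lowest of the 3, with 0.751, 0.516 and 1.14 TPM in WT and 2.15, 2.85 and 4.36 TPM in DKO. It reached 1 TPM in 1 WT library and in each DKO library, so it was tested because of its DKO values. The log2 difference was 1.17 (SE 0.26, adjusted p = 0.0372 by limma). It was also called with a filter on the mean over all 6 libraries (limma, BH adjusted p = 0.0452).

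The calls differed in how far they rested on single libraries. Cx3cr1 was called in each of the 6 fits that left out 1 library (limma, BH adjusted p up to 0.0429). Ccr2 was not called without WT 5, WT 6 or DKO 7 (limma, BH adjusted p up to 0.053). Ccr1 was called in none of these 6 fits (limma, BH adjusted p from 0.0526 to 0.0975). With replicate 7 counted as WT, or with a term for sex-linked transcripts, 0 members were called, and the 3 receptors kept positive differences of 0.92 to 1.14 and of 1.13 to 1.59. In the 4 libraries with Y-linked transcripts, DKO 9 against the 3 WT libraries, the differences were 1.13 for Cx3cr1 and 1.59 for Ccr2 (limma, BH adjusted p = 0.204 and 0.0827), and 0 members were called. With 1 DKO library the spread there comes from WT alone, and DKO 9 is assumed to vary like it. The term for sex-linked transcripts gives the same differences, because DKO 7 and DKO 8 are the only Xist libraries, so it rests on DKO 9 as well.

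**Figure D2:**
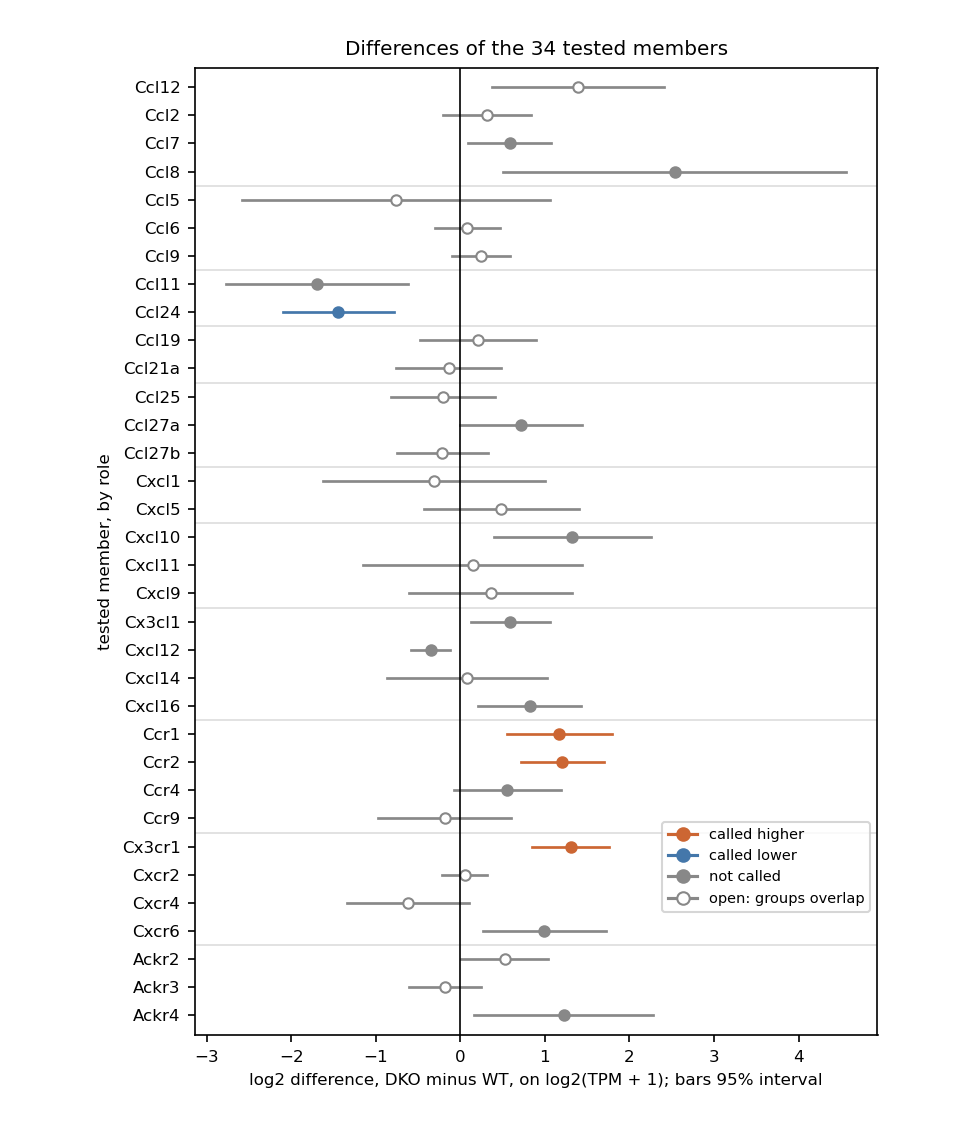
Log2 difference (DKO minus WT, on log2(TPM + 1); points) with its 95% interval from limma (bars) for the 34 tested members, in order of role; filled points mark groups without overlap, orange and blue mark calls. The 3 called receptors lie between 1.17 and 1.31, and Ccl24 is at -1.44; the widest intervals belong to Ccl5 and Ccl8, ligands that were at 0 in at least 1 library.

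The called receptors lie on chromosome 9. On GRCm38, Ccr1 (123962126 to 123968692), Ccr3 (124017825 to 124031692) and Ccr2 (124101918 to 124109140) lie in this order on that chromosome, which holds 11 of the 58 members. Neighbours differed: Ccr3, the eotaxin receptor between Ccr1 and Ccr2, was listed at 0 in all 6 libraries. Ccr9 (123767211 to 123783457) and Cxcr6 (123806477 to 123811754) lie on the other side of Ccr1. Ccr9, the receptor of gut-homing lymphocytes, had 0.768, 2.97 and 1.99 TPM in WT and 1.08, 1.35 and 1.94 TPM in DKO, with overlapping groups. Cx3cr1 (120048683 to 120068296) is farther away on the same chromosome.

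Promoter sequence was taken from RefSeq (GRCm38.p6), which holds 43 of the 58 members, among them 3 of the 4 called ones. Ccr1, Ccr2 and Cx3cr1 were picked because they were called higher. Within DKO they were not ordered alike, with DKO 9 highest for Ccr1 and Ccr2 and lowest for Cx3cr1. Shown are the 250 bases before the transcript start that RefSeq's table gives for these receptors. For Ccr2 that start lies inside the gene span given above, so its stretch overlaps the span, while the other stretches end where the span begins. Each is written 5′ to 3′ on the strand of its gene. Capitals mark GAGGAA, a core that the myeloid transcription factor PU.1 can bind, searched on both strands.
Ccr1, minus strand, chr9:123968693-123968942: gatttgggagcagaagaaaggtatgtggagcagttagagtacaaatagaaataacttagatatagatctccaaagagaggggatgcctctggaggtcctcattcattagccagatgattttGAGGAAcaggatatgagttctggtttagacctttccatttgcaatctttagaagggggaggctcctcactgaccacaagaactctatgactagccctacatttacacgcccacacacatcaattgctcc
Ccr2, plus strand, chr9:124101933-124102182: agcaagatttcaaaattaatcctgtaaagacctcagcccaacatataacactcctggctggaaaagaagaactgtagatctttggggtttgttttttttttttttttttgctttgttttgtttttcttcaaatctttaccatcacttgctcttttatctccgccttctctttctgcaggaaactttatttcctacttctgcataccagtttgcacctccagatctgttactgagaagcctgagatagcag
Cx3cr1, minus strand, chr9:120068297-120068546: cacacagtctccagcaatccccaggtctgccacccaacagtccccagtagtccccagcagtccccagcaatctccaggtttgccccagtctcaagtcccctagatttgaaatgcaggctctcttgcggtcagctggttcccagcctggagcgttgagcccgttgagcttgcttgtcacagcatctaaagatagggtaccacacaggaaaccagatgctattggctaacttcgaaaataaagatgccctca
GAGGAA was found 1 time in Ccr1, starting 129 bases before the transcript start, and 0 times in Ccr2 and Cx3cr1. It was present in 13 of the 43 member promoters and in 23.1% of all 27025 promoters of the same length.

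Of the CCR2 ligands Ccl2, Ccl7 and Ccl12, 0 were called. Ccl2, the main monocyte attractant, had 5.82, 6.75 and 9.99 TPM in WT and 11.5, 8.86 and 8.08 TPM in DKO. These groups overlapped, and the log2 difference of 0.32 had a 95% interval from -0.20 to 0.83. Ccl7, also a monocyte attractant, had 5.51, 5.74 and 3.77 TPM in WT and 7.00, 6.97 and 10.03 TPM in DKO, without overlap (log2 difference 0.58, adjusted p = 0.125 by limma). Ccl12, the mouse relative of Ccl2, had 2.29, 4.04 and 8.01 TPM in WT and 18.5, 14.5 and 7.88 TPM in DKO. Its highest WT library, WT 6, was just above its lowest DKO library, DKO 9 (log2 difference 1.39, adjusted p = 0.0874 by limma). Its ratio of means was 2.85, and 4.31 without WT 6. Ccl8, encoded beside Ccl12 and also a monocyte chemoattractant protein, had 3.64, 0 and 5.31 TPM in WT and 16.6, 6.39 and 43.0 TPM in DKO. It had the largest log2 difference of any tested member, 2.54, but libraries within a group differed so much that its interval ran from 0.51 to 4.57 (limma, BH adjusted p = 0.111). Library DKO 9, highest for Ccl8, was the lowest DKO library for Ccl12, so these neighbours did not order the DKO libraries alike.

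Of the CCR1 ligands and their relatives Ccl5, Ccl6 and Ccl9, 0 were called. Ccl6 and Ccl9, CC ligands of mouse myeloid cells, were present in every library. Ccl6 had 13.4, 13.8 and 13.5 TPM in WT and 15.6, 17.1 and 11.2 TPM in DKO, and Ccl9 had 7.27, 5.88 and 7.74 against 9.01, 7.70 and 8.49 TPM. Both pairs of groups overlapped (log2 differences 0.08 and 0.24). Ccl5, a T and NK cell chemokine, ranged from 0 to 7.203 TPM in WT and from 0 to 1.75 TPM in DKO. Ccl3 and Ccl4 did not pass the filter, reaching at most 1.62 and 1.40 TPM in any library; their annotated spans overlap, which makes the separate values uncertain. Ccl3, Ccl4 and Ccl5, inflammatory attractants of macrophages and T cells, were thus at or under 1.75 TPM in each DKO library.

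Ccl24, an eotaxin, one of the ligands that attract eosinophils through CCR3, was the only ligand of the 23 tested that was called lower. It had 5.42, 9.37 and 4.60 TPM in WT and 2.14, 1.14 and 1.77 TPM in DKO. All DKO libraries were below all WT libraries, with a log2 difference of -1.44 (SE 0.28, adjusted p = 0.0239 by limma) and a WT mean 3.84 times the DKO mean. Ccl11, eotaxin 1, a product of fibroblasts and other stromal cells, had 15.3, 10.1 and 6.14 TPM in WT and 1.14, 1.90 and 5.18 TPM in DKO. Its groups did not overlap and its log2 difference was -1.69, but WT 6 and DKO 9 were close and it was not called (SE 0.45, adjusted p = 0.0611 by limma). Without DKO 9 it was called (limma, BH adjusted p = 0.0309), and its WT mean went from 3.84 to 6.92 times the DKO mean. It was also called with quantile normalization and when haemoglobin, structural and short RNA rows were left out (limma, BH adjusted p = 0.0471 and 0.0334). The Ccl24 call was lost without WT 4, DKO 7, DKO 8 or DKO 9 (limma, BH adjusted p from 0.0505 to 0.073), with replicate 7 as WT (0.501), with a term for sex-linked transcripts (0.223) and in the 4 libraries with Y-linked transcripts (0.231; log2 difference -1.38). Ccl26 was listed at 0 in all 6 libraries, as was the receptor Ccr3.

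Ccl11 (chromosome 11, 82057832 to 82062955) lies between Ccl7 (82045712 to 82047525) and Ccl12 (82101845 to 82103399), with Ccl8 (82115185 to 82116799) beyond it. Chromosome 11 holds 14 members. In this row of neighbours Ccl7 and Ccl8 were above, and Ccl11 below, the WT values in all 3 DKO libraries, none of them called.

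**Figure D3:**
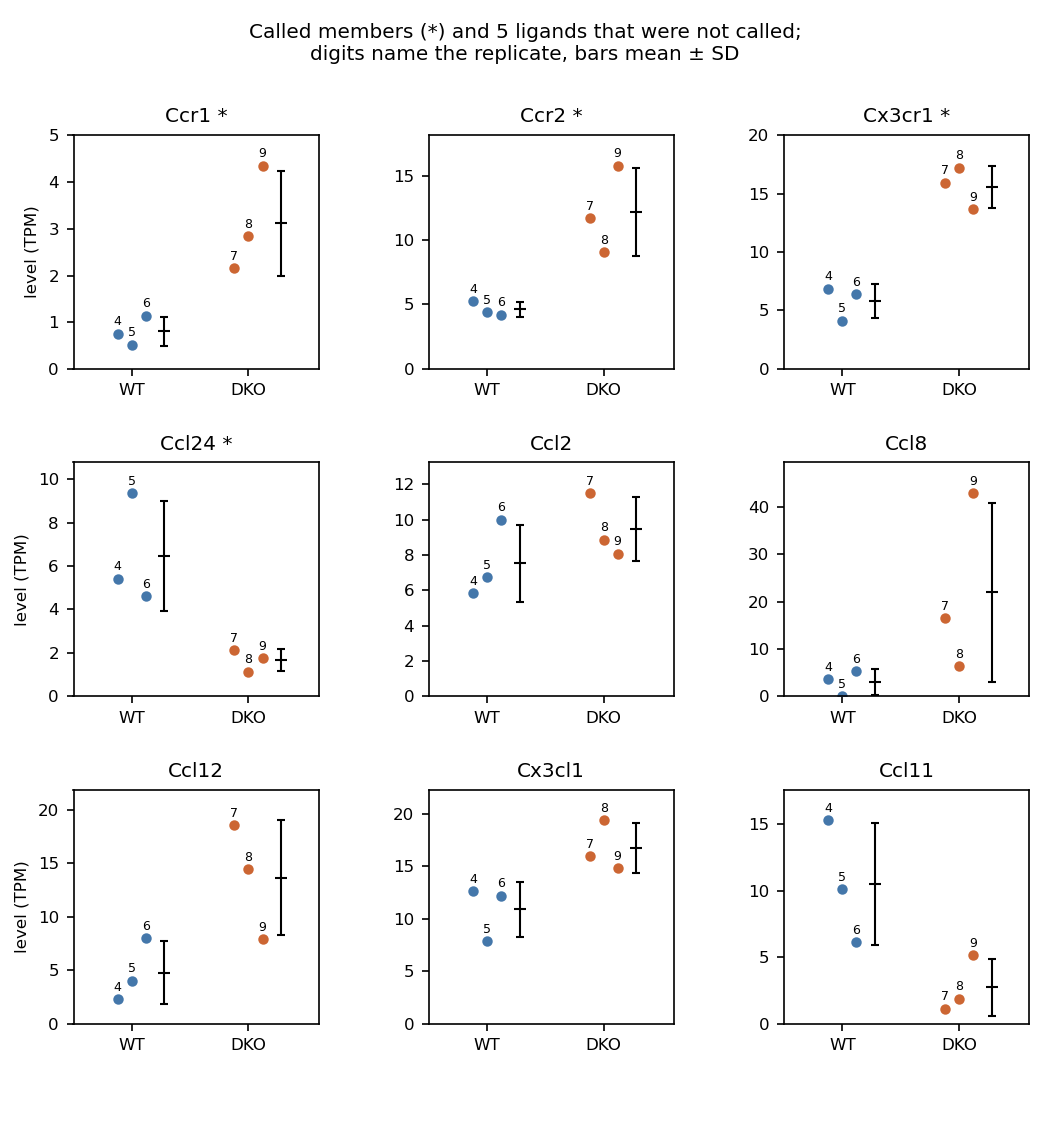
Level in TPM of the 4 called members (asterisks), the monocyte attractants Ccl2, Ccl8 and Ccl12, the CX3CR1 ligand Cx3cl1 and the eotaxin Ccl11, with 1 point per library (digits name the replicate) and the mean ± SD of 3 libraries beside them. The called receptors separate the groups, and Ccl8 runs from 6.39 to 43.0 TPM within DKO.

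Cxcl12, the stromal and endothelial ligand that retains CXCR4-bearing cells, was the most abundant member, with 156, 185 and 156 TPM in WT and 132, 138 and 118 TPM in DKO. All DKO libraries were lower, with a log2 difference of -0.35 (SE 0.10, adjusted p = 0.0659 by limma). It was called when haemoglobin, structural and short RNA rows were left out (limma, BH adjusted p = 0.0484). Cxcl12 made up 43.2%, 50.2% and 43.8% of the summed ligand TPM in WT and 35.1%, 38.2% and 30.2% in DKO, while that sum was 357 to 367 TPM in WT and 363 to 391 TPM in DKO. Its receptor Cxcr4 had 12.2, 13 and 12.8 TPM in WT and 4.72, 7.69 and 13.02 TPM in DKO. DKO 7 and DKO 8 were low, but DKO 9 matched WT (log2 difference -0.62, adjusted p = 0.245 by limma). Ackr3, which scavenges CXCL12, was the most abundant receptor, with 62.1, 61.8 and 84.1 TPM in WT and 49.9, 74.7 and 58.6 TPM in DKO (log2 difference -0.18, interval -0.61 to 0.24).

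Cx3cl1 (fractalkine), the ligand of Cx3cr1 on endothelial cells, had 12.6, 7.84 and 12.2 TPM in WT and 15.9, 19.4 and 14.8 TPM in DKO. The groups did not overlap (log2 difference 0.59, adjusted p = 0.108 by limma). Cxcl16, the other membrane-bound chemokine, had 11.9, 6.34 and 7.26 TPM in WT and 19.99, 12.96 and 13.8 TPM in DKO, also without overlap (log2 difference 0.82, adjusted p = 0.091 by limma). It was called without WT 4 (limma, BH adjusted p = 0.0429). Its receptor Cxcr6, found on T and NK cells, had 0.699, 0 and 0.394 TPM in WT and 2.56, 1.47 and 1.13 TPM in DKO. Cxcr6 passed the filter through its DKO libraries alone, so its groups had to differ (log2 difference 0.995, adjusted p = 0.0865 by limma). Cxcl14, a ligand of stromal and epithelial cells, was 33.0, 23.5 and 32.8 TPM in WT and 23.4, 20.7 and 61.9 TPM in DKO. DKO 9 alone was high, and the ratio of means went from 1.19 to 0.741 without it.

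CXCR3 ligands, induced by interferon, gave 0 calls among 3 tested. Cxcl10 had 0.428, 0.740 and 0.364 TPM in WT and 5.78, 2.25 and 1.40 TPM in DKO, and it passed the filter through its DKO libraries alone. DKO 7 was highest, and the ratio of means of 6.17 was 3.58 without it (log2 difference 1.32, SE 0.39, adjusted p = 0.0791 by limma). Cxcl9 had 6.81, 5.95 and 6.63 TPM in WT and 16.8, 8.31 and 4.28 TPM in DKO. Its DKO libraries lay on both sides of WT, and its ratio of 1.52 fell to 0.974 without DKO 7. Cxcl11 ranged from 0 to 2.80 TPM in WT and from 1.07 to 2.72 TPM in DKO. Their receptor Cxcr3 did not exceed 0.590 TPM in any library and was not tested. The interferon response genes moved beside Cxcl10: 10 of 25 tested were higher and 0 lower, with a median log2 difference of 1.101, among them Ifit2 (11.4 ± 0.660 to 42.6 ± 2.39 TPM) and the transcription factor Irf7 (7.78 ± 0.727 to 30.7 ± 9.05 TPM). Their summed level was 317 to 364 TPM in WT and 523 to 2191 TPM in DKO, highest in DKO 7. Much of that DKO 7 sum came from Iigp1 and Igtp, which were not called. Iigp1 had 687, 63.7 and 74.1 TPM and Igtp 547, 44.5 and 42.0 TPM in DKO 7, 8 and 9. The part of the interferon response genes in the values of Cxcl10 was not tested.

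Cxcr2, the receptor of neutrophil-attracting CXC ligands, was the next most abundant receptor after Ackr3 and varied little, with 34.4, 37.2 and 29.3 TPM in WT and 31.8, 36.5 and 36.1 TPM in DKO. The log2 difference of 0.05 had an interval from -0.22 to 0.32. The neutrophil transcripts S100a8 and S100a9 were below Cxcr2 in every library. S100a8 was between 0 and 7.52 TPM in WT and between 6.76 and 22.5 TPM in DKO, S100a9 between 1.16 and 4.08 and between 4.93 and 30.3 TPM, while the neutrophil surface marker Ly6g was listed at 0 in all 6 libraries. Of 5 tested neutrophil markers 0 were higher and 1, Mmp9, was lower. Mmp9 passed the filter through its WT libraries alone, so its groups had to differ. Of the CXCR2 ligands, Cxcl1 had 12.3, 3.57 and 1.76 TPM in WT and 4.79, 3.25 and 2.55 TPM in DKO. WT 4 alone was high, and without it the ratio of means went from 0.599 to 1.33. Cxcl5 had 1.73, 7.09 and 3.25 TPM in WT and 4.36, 6.52 and 5.40 TPM in DKO, with overlapping groups; its ratio of 1.35 was 2.18 without WT 5. Cxcl2 and Cxcl15 stayed under 1 TPM, Cxcl3 was listed at 0, and Cxcr1 was listed at 0 as well.

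CCR7 ligands, which guide dendritic cells and T cells into lymphatics, were present without a call. Ccl21a, made by lymphatic endothelium, had 22.5, 30.7 and 49.9 TPM in WT and 28.1, 27.96 and 32.7 TPM in DKO. The spread within WT was wider than the difference between the means. Ccl19 had 12.8, 11.8 and 5.83 TPM in WT and 14.0, 9.52 and 10.7 TPM in DKO, also overlapping. Ccr7 itself reached 1.148 TPM in WT 5 and stayed under 0.6 TPM elsewhere. Ccl21b was 9.73 TPM in WT 5, 21.1 TPM in DKO 8 and at most 0.0177 TPM in the other 4 libraries, and Ccl21c was listed at 0. The Ccl21 genes are near-identical copies whose reads are divided by estimate, so their separate values are uncertain. The same holds for Ccl27a and Ccl27b. Ccl27a had 12.2, 5.41 and 11.3 TPM in WT and 15.9, 19.4 and 12.3 TPM in DKO, just without overlap (log2 difference 0.71, adjusted p = 0.19 by limma), and Ccl27b was between 0.620 and 1.44 TPM.

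Among the atypical receptors, Ackr4, which removes CCL19, CCL21 and CCL25, had 3.34, 0.712 and 4.91 TPM in WT and 5.77, 8.62 and 7.57 TPM in DKO. The groups did not overlap (log2 difference 1.22, SE 0.45, adjusted p = 0.134 by limma). Ackr2, a scavenger of inflammatory CC chemokines in lymphatic endothelium, had 2.11, 2.77 and 1.66 TPM in WT and 3.83, 4.14 and 2.72 TPM in DKO. DKO 9 was just below WT 5 (log2 difference 0.52, adjusted p = 0.178 by limma). Ackr1, which marks venules, was listed at 0 in WT 4 and WT 5 and was 0.699 TPM in WT 6, against 1.39, 2.60 and 0.673 TPM in DKO, too low to be tested by limma.

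Of the remaining tested members, Ccl25, the ligand of CCR9, was between 2.31 and 5.41 TPM in all libraries with overlapping groups. Ccr4, a receptor of helper and regulatory T cells, had 0.576, 0.615 and 1.07 TPM in WT and 1.31, 2.46 and 1.099 TPM in DKO (log2 difference 0.56, adjusted p = 0.238 by limma). Its groups did not overlap, but WT 6 and DKO 9 were close. Like Ccr1, it reached 1 TPM in 1 WT library and each DKO library, so it was tested because of its DKO values.

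Of the 24 members not tested, 7 were listed at 0 in all 6 libraries: Ccl1, Ccl20, Ccl21c, Ccl26, Cxcl3, Ccr3 and Cxcr1. The other 17 were above 0 in at least 1 library but did not reach 1 TPM in 3. They were Ccl3, Ccl4, Ccl17, Ccl21b, Ccl22, Ccl28, Cxcl2, Cxcl13, Cxcl15, Cxcl17, Ccr6, Ccr7, Ccr8, Ccr10, Cxcr3, Cxcr5 and Ackr1. Apart from Ccl21b their highest value was 8.18 TPM, for the B cell attractant Cxcl13 in WT 4, which was 0 in WT 5 and WT 6. Ccl22, a ligand of CCR4, was the only one of the 17 whose groups did not overlap, with 0, 0 and 0.206 TPM in WT and 0.412, 0.515 and 0.9902 TPM in DKO. Ccl17, the other CCR4 ligand, was 0 in all WT libraries and in DKO 8, and 0.965 and 2.92 TPM in DKO 7 and DKO 9. Of the untested receptors, Cxcr3, Cxcr5, Ccr6, Ccr8 and Ccr10 stayed under 0.6 TPM in every library.

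Other genes of the chemokine system were given as lists chosen with earlier results of these data known. Of 11 tested further chemokine, chemerin and processing genes, 2 were higher and 0 lower. Mif, a cytokine that also binds CXCR2 and CXCR4, rose from 218 ± 17.5 to 357 ± 16.3 TPM, and Cd74, the MHC class II invariant chain and a receptor of MIF, rose from 147 ± 32.0 to 370 ± 157 TPM. Of 27 tested genes of receptor signalling 2 were higher and 0 lower: the receptor kinase Grk5 (31.5 ± 6.43 to 61.2 ± 6.63 TPM) and the focal adhesion-related kinase Ptk2b (6.34 ± 1.95 to 14.0 ± 1.38 TPM). Genes of NF-kappaB and inflammatory cytokines gave 1 higher, Rel, and 0 lower of 19. Genes of leukocyte adhesion gave 2 higher and 0 lower of 16, the myeloid integrins Itgam (4.53 ± 0.549 to 9.09 ± 1.95 TPM) and Itgax (0.740 ± 0.140 to 2.56 ± 0.282 TPM). Itgax reached 1 TPM in DKO libraries only, so it passed the filter through them and its groups had to differ. The median log2 differences of these 4 lists were -0.02, 0.24, 0.14 and 0.18, beside 0.03 for all genes tested. Over all genes tested 6.51% were called higher and 4.22% lower.

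Markers of monocytes and macrophages were higher beside the receptors. In whole-heart RNA, more cells of a type and more RNA per cell cannot be told apart. Of 19 tested monocyte and macrophage markers 9 were higher and 0 lower, with a median log2 difference of 0.87, among them complement C1qa (51.0 ± 5.05 to 113 ± 21.6 TPM) and Ms4a7 (3.24 ± 1.26 to 19.2 ± 6.10 TPM). The summed level of the 20 listed markers was 478 to 635 TPM in WT and 797 to 1142 TPM in DKO, with no marker at 0 throughout. Set against that sum, Cx3cr1 had 8.65 to 12.9 TPM per 1000 TPM of the markers in WT and 14.0 to 18.3 in DKO, without overlap. Ccr2 had 6.62 to 9.83 in WT and 9.65 to 19.8 in DKO, with DKO 8 within the WT range and DKO 9 far above it. Ccr1 had 1.08 to 1.79 and 1.89 to 5.46. These separations rest on the lysozyme gene Lyz2, which made up 40.3% to 43.0% of the sum in WT and 29.1% to 30.9% in DKO. Without Lyz2 the groups overlapped for all 3 receptors: Cx3cr1 was 15.2 to 21.5 per 1000 TPM in WT and 19.7 to 26.5 in DKO, and Ccr1 was 1.89 to 3.01 and 2.66 to 7.73. Against C1qa alone they overlapped too. Ccl24 was lower in DKO under each of these denominators, at 12.2 to 34.3 in WT and 1.76 to 3.15 in DKO without Lyz2. That outcome was fixed in advance, because its TPM was lower and each denominator higher in all DKO libraries. A lower ratio was not particular to Ccl24. Per 1000 TPM of the full sum, Ccl6 was 21.27 to 28.75 in WT and 13.68 to 18.23 in DKO. Ccl9 was 12.19 to 13.62 and 7.89 to 10.65, also without overlap. Neither was called, and Ccl8 and Ccl12 overlapped on this scale. The part of the marker level in the receptor values was not tested beyond these ratios. Erythroid markers, mainly haemoglobin, also differed between libraries, with sums of 6049 to 38470 TPM in WT, highest in WT 5, and 1786 to 6768 TPM in DKO. Of 7 tested, 0 were higher and 1, Slc4a1, was lower, with a median log2 difference of -1.86, and their part in the leukocyte and chemokine values was not tested. Slc4a1 passed the filter through its WT libraries alone, so its groups had to differ.

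**Figure D4:**
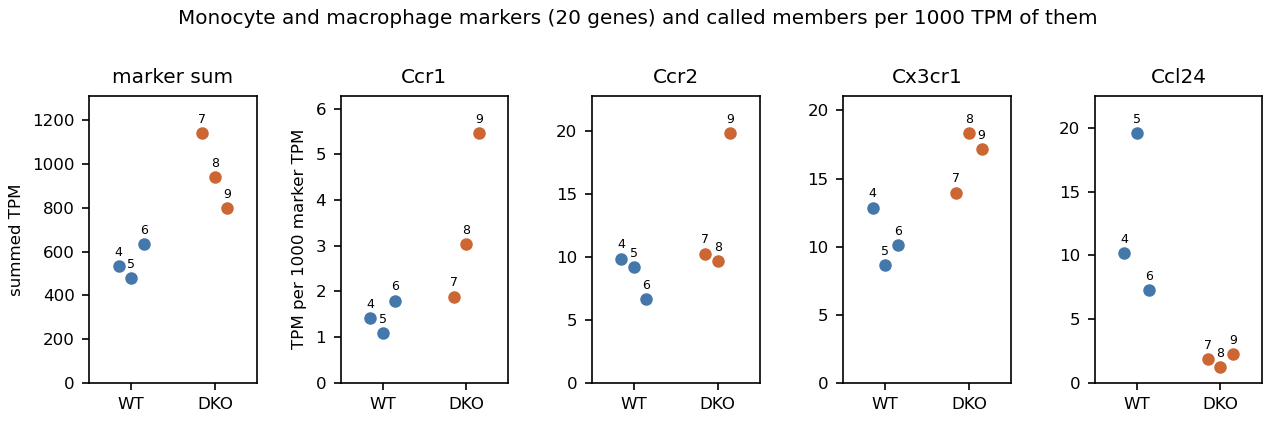
Summed TPM of the 20 monocyte and macrophage markers (left) and TPM of the called members per 1000 TPM of these markers, with 1 point per library (digits name the replicate). Ccr1 and Cx3cr1 are separated by group on this scale, though not once Lyz2 is left out of the sum, Ccr2 overlaps, and Ccl24 is at 7.25 to 19.6 in WT and 1.22 to 2.22 in DKO.

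Markers of resident cardiac macrophages went both ways, with 2 higher (Gas6 and Mrc1) and 2 lower of 9 tested. Cd163 was 12.5, 11.4 and 11.4 TPM in WT and 4.50, 4.79 and 4.65 TPM in DKO, and Lyve1, also a lymphatic marker, was 18.1, 15.2 and 17.0 against 9.27, 8.30 and 7.81 TPM. Gas6 went from 111 ± 6.67 to 189 ± 25.75 TPM and Mrc1 from 27.0 ± 2.80 to 38.9 ± 3.64 TPM. The summed level of the 9 markers, of which Gas6 was the highest, was 252 to 286 TPM in WT and 302 to 354 TPM in DKO. Ccl24 was called lower, like Cd163 and Lyve1 and unlike Gas6 and Mrc1. Low values in the same 3 DKO libraries follow from these calls and show no link. The part of resident macrophages in the fall of Ccl24 was not tested. Of the dendritic cell list 3 of 7 tested genes were higher, all MHC class II genes, and 0 lower. Mast cell markers gave 2 higher (Cma1 and Tpsb2) and 0 lower of 5. T and NK cell markers gave 0 higher and 1 lower (Cd247) of 5, and B cell markers 0 higher and 1 lower (Cd79a) of 3. Cd79a passed the filter through its WT libraries alone, so its groups had to differ. Blood vessel endothelial markers, whose cells make Cx3cl1 and Cxcl12, gave 0 higher and 3 lower of 10 (Esam, Tie1 and Cdh5), with sums of 838 to 1010 TPM in WT and 759 to 851 TPM in DKO. Fibroblast markers gave 5 higher and 0 lower of 10, with sums of 1035 to 1086 and 1393 to 1727 TPM, beside the lower values of Ccl11.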

How the data were processed

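Hearts were profiled by total RNA sequencing in 6 libraries. The submitters' processing notes name bcl2fastq, kallisto 0.44.0 and the mm10 build. The authors deposited TPM per gene and library, not pooled; no source used here gives the annotation or how transcripts were summed. Groups follow titles. The labels do not say whether each library is a different animal; p-values therefore reflect variation among these libraries, which may be technical. TPM was tested with limma 3.58.1 (trend) in R 4.3.3 on log2(TPM + 1), for genes with at least 1 TPM in 3 libraries, with BH adjustment; the script was tested on simulated data. Of the matching rows 1 and 1 gene of a list are not reported here and enter no count of members or lists. Members and gene lists were chosen with earlier results of these data known. Values per library are given for members that were called, whose groups did not overlap, the 5 most abundant, and their tested partners; of each list, up to 4 genes with the smallest p are named, while Ly6g and the values per library of other members were added after they were seen. Alternatives changed the pseudocount, filter, scaling, variance model, weights, the group of replicate 7, sex-linked terms and single libraries.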

Additional observations from a re-analysis of the deposited data

How the results depend on the processing

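No paired analysis was possible because WT and DKO share no replicate number. With all 6 libraries 3 members were higher and 1 lower, and 946 genes were higher and 614 lower. With replicate 7 counted as WT, 0 members were called in either direction, and 0 genes were higher and 1 lower. With a term for sex-linked transcripts 0 members were called, and 44 genes were higher and 48 lower. In the libraries with Y-linked transcripts 0 members were called, and 8 genes were higher and 21 lower. These fits have fewer residual degrees of freedom or move a library between groups. Members lower were 0 with a filter of 5 TPM, which Ccl24 does not pass, 2 with quantile normalization and 3 without haemoglobin, structural and short RNA rows; the cause of the latter changes was not tested. Genes lower were 397 without trend. Leaving out 1 library at a time gave 1 to 3 members higher, 0 to 1 lower, 333 to 572 genes higher and 274 to 376 lower. Pseudocount 0.1, no filter, a mean filter, median-ratio scaling, no trend and array weights left the same 4 members called.

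Members that reversed were all uncalled. With replicate 7 as WT the log2 difference was 0.062 for Ackr3, -0.064 for Ccl19, 0.043 for Ccl27b, -0.018 for Ccl6, 0.034 for Ccr9, -0.26 for Cxcl11, -0.40 for Cxcl9 and 0.009 for Cxcr4. With the term for sex-linked transcripts, and alike in the libraries with Y-linked transcripts, it was 0.005 for Ccl21a, 0.26 for Ccl25, -0.26 for Ccl6, 0.094 for Ccr9, -0.21 for Cxcl11, -0.50 for Cxcl9 and 0.04 for Cxcr4. Cxcl11 was at -0.17 with array weights and -0.12 with quantile normalization. Leaving out 1 library gave -0.11 to 0.39 for Ccl19, -0.40 to 0.16 for Ccl21a, -0.44 to 0.037 for Ccl25, -0.033 to 0.25 for Ccl6, -0.50 to 0.081 for Ccr9, -0.82 to 0.32 for Cxcl1, -0.48 to 0.48 for Cxcl11, -0.40 to 0.36 for Cxcl14, -0.089 to 0.79 for Cxcl9 and -0.043 to 0.13 for Cxcr2. Chosen after seeing the data, other denominators closed the gap between the lowest DKO and the highest WT value per 1000 marker TPM. It went from 0.0923 to -0.354 without Lyz2 and -4.64 against C1qa for Ccr1, and from 1.104 to -1.86 and -13.8 for Cx3cr1. Read depth is unknown, which limits what can be said of members at low TPM.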
